A study of Mus musculus with 15 samples.

Results

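Transcription factors that build and maintain the oligodendrocyte lineage were followed in the brains of mice fed cuprizone, with or without siponimod. The 9 examined are Sox10, Sox8, Olig1, Olig2, Myrf, Nkx6-2, Nkx2-2, Zfp488 and St18, and they were picked by symbol from the deposited expression tables. All 9 were found among the 19261 genes measured in every mouse, and all 9 passed the filter on low values. Tissue was a mix of corpus callosum and neocortex, taken from 15 wild-type mice, with 5 in each of 3 groups. Control mice received standard chow and no treatment. Vehicle mice received 0.25% cuprizone (w/w) for 3 weeks together with the vehicle. Siponimod mice received the same cuprizone diet for 3 weeks together with siponimod at 3.125 mg/kg. No group received siponimod without cuprizone, and the labels used here give neither age nor sex.

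Oligodendrocytes make the myelin sheaths of the brain, and they arise from progenitor cells that stay spread through the adult tissue. Olig2, a basic helix-loop-helix factor, and Sox10, an HMG-box factor, are present from the progenitor to the myelinating cell. Myrf and Nkx6-2 are switched on as the cell matures, and Myrf then drives the genes of the myelin sheath. Cuprizone is a copper chelator used to injure mature oligodendrocytes in rodents, while siponimod is a modulator of sphingosine phosphate receptors. In whole tissue, fewer cells of a type and less RNA per cell cannot be told apart, so every difference below is a difference in the level of a transcript in the tissue.

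RefSeq promoter sequences were held for 5 of the 9 factors, namely Olig2, Sox8, Nkx6-2, Nkx2-2 and Zfp488. Shown are Olig2 and Sox8, the factors that passed the test below in opposite directions, and Nkx6-2, the mature-cell factor whose ratio to Olig2 differed most in means from controls. Each runs 5′ to 3′ from 250 bases before to 50 bases after the start used by RefSeq, on GRCm38.p6. For Olig2 and Nkx2-2 that start lies inside the gene as bounded by GENCODE, and for the other windows it lies at the gene's edge. Capitals mark matches on either strand to ACAANG (the core recognised by SOX factors), CANNTG (the E-box of helix-loop-helix factors such as Olig2) or CTGGNAC (the motif of Myrf). None of the marked matches overlap.
Olig2: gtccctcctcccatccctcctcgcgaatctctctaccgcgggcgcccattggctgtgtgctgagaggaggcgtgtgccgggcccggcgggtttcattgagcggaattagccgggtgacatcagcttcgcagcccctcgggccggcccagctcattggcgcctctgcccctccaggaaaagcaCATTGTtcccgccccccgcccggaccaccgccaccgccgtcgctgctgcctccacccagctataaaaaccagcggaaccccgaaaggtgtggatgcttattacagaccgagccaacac
Sox8: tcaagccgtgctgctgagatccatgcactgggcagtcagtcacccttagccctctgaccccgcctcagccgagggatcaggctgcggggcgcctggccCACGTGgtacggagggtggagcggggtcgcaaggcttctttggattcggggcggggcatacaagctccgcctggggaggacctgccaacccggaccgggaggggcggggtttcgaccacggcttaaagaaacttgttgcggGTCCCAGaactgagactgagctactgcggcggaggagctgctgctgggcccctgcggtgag
Nkx6-2: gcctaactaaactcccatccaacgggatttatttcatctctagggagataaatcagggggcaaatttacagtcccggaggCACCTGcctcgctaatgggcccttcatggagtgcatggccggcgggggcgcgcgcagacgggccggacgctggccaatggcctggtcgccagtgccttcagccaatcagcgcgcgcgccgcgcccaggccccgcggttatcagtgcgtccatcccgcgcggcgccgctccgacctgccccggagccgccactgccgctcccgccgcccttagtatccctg
The Olig2 window is chr16:91225300-91225599 on the plus strand, the Sox8 window is chr17:25570637-25570936 on the minus strand, and the Nkx6-2 window is chr7:139582748-139583047 on the minus strand. The Olig2 window held 1 SOX match, no E-box and no Myrf match. The Sox8 window held 1 E-box and 1 Myrf match, and the Nkx6-2 window held 1 E-box. Over all 32851 RefSeq promoters of this length, 41.2% held a SOX match, 72.3% an E-box and 19.3% a Myrf match, so each of these letters is common. Of the other windows, Nkx2-2 held 3 E-boxes, and Zfp488 held 1 E-box and 1 Myrf match. A match is a run of letters and was not tested as a binding site.

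Levels are given as scaled TPM, that is, deposited TPM (transcript abundance per library) multiplied by 1 factor per library so that the median tested gene is equal in all 15 libraries. One library stood apart. In vehicle mouse 1 the small RNA Bc1 took 35.1% of all TPM, against 5.996% to 10.8% in the other 14 mice, and the median tested gene lay at 5.54 TPM against 11.8 to 13.0. Its scaling factor was 2.14, against 0.912 to 1.00 elsewhere. After scaling it still differed from the other vehicle mice by transcript length, with a median log2 difference of 0.867 in the shortest 10% of genes and −0.553 in the longest 10%. Grouped by length, the 9 factors differed in the same directions, though not in strict order of length. Nkx6-2 (longest transcript 1907 bases), Olig1 (2162 bases) and Nkx2-2 (2120 bases) lay 1.03, 0.70 and 0.33 log2 above the other vehicle mice. Myrf (5674 bases), St18 (5892 bases) and Zfp488 (4301 bases) lay at −0.97, −0.73 and −0.76 log2 relative to them. Sox8, Sox10 and Olig2, of intermediate length, lay within 0.2 log2 of the other vehicle mice. Fold changes and ratios of the 9 factors that involve vehicle mice are therefore given with and without vehicle mouse 1. For genes outside the 9, levels, fold changes and list medians use all mice unless stated otherwise.

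The 9 factors spanned a wide range of levels in control brain. Olig1 was the most abundant at 89.6 ± 12.7 scaled TPM (SD, n = 5), and Zfp488 the least abundant at 1.19 ± 0.160. Sox8 (31.8 ± 3.64) and Sox10 (30.6 ± 4.75) followed Olig1, and their ranges overlapped each other. Myrf (18.5 ± 3.29), Olig2 (16.7 ± 2.58) and Nkx6-2 (11.7 ± 3.19) came next, with each overlapping its neighbour in the order. Nkx2-2 (4.66 ± 0.803) and St18 (2.54 ± 0.349) were separate from the genes above and below them.

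**Figure D1:**
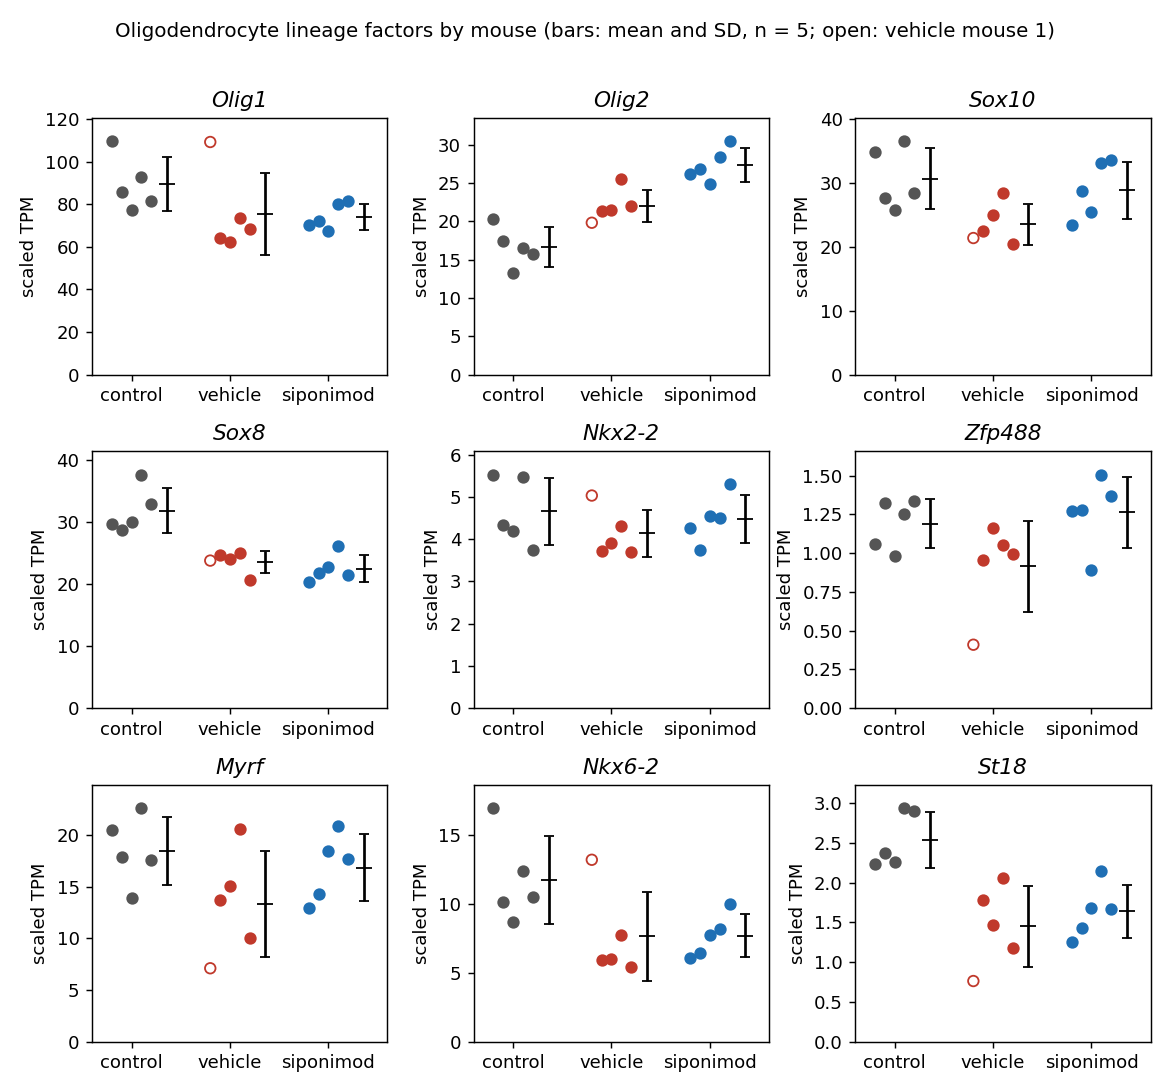
Level of each of the 9 factors in every mouse (y axis, scaled TPM; x axis, the 3 groups of 5 mice). Filled points are mice, the open point is vehicle mouse 1, and bars give the mean and SD of all 5 mice. For Olig2 the siponimod mice, at 24.8 to 30.5 scaled TPM, and vehicle mice 2 to 5 lie above every control, while vehicle mouse 1 lies just under the highest control. Sox8 lies below every control in all 10 cuprizone-fed mice.

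The first comparison asks what 3 weeks of cuprizone with vehicle did to these factors. Sox8 fell, by 25.2%, and it was the 1 of 9 factors that passed limma's test over all tested genes (adjusted p under 0.05), against 2.41% of all 17714 tested genes (1.38% higher and 1.03% lower). Leaving out vehicle mouse 1, 4 of 9 passed, against 3.79% of all genes (2.05% higher and 1.74% lower). Olig2 was then higher, and Sox8, Olig1 and Nkx6-2 were lower. The median log2 fold change of the 9 was −0.37 with all mice and −0.34 without vehicle mouse 1, while the median over all genes was 0.0073 and −0.014. In the authors' deposited table, 6 of 9 passed at an adjusted p under 0.05, against 6.66% of its genes. Those 6 were Olig2, which was higher, and Sox8, Olig1, Nkx6-2, Sox10 and St18, which were lower. Which mice entered the authors' fold changes is not given in the sources used here.

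Olig2 is a factor without which oligodendrocytes are not specified. It lies on chromosome 16 from 91225457 to 91228677 on the plus strand (GRCm38, GENCODE M21). Its level in control mice 1 to 5 was 20.3, 17.4, 13.2, 16.6 and 15.8 scaled TPM. Vehicle mice 1 to 5 had 19.8, 21.3, 21.5, 25.5 and 22.0, so vehicle mice 2 to 5 all lay above every control and vehicle mouse 1 lay just under the highest control. This gave a log2 fold change of 0.40 (SE 0.10, limma adjusted p = 0.0531), which missed the threshold. Without vehicle mouse 1 it was 0.44 (SE 0.099, limma adjusted p = 0.0193), or 1.35-fold higher in vehicle mice. With all mice it was 0.16 on TPM as deposited (limma adjusted p = 0.63) and 0.29 with Bc1 taken out (limma adjusted p = 0.613). The authors' deposited table gives a log2 fold change of 0.45 with an adjusted p of 0.000286.

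Olig1, the neighbour and close relative of Olig2, promotes maturation and the repair of myelin. It lies on the same strand of chromosome 16 from 91269772 to 91271933, with 41094 bases between the end of Olig2 and its start. Control mice 1 to 5 had 109.8, 85.9, 77.4, 93.0 and 81.8 scaled TPM. Vehicle mouse 1 had 109.4, while vehicle mice 2 to 5 had 64.3, 62.3, 73.4 and 68.3, all below the lowest control. The log2 fold change was −0.27 with all mice (SE 0.14, limma adjusted p = 0.529) and −0.41 without vehicle mouse 1 (SE 0.089, limma adjusted p = 0.0157). Olig1 overlaps Gm15966 on the opposite strand, and since the use of strand in quantification is not stated, their reads cannot be told apart.

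The ratio of Olig2 to Olig1 within a mouse was looked at after these values were seen and was not tested. It was 0.171 to 0.203 in the 5 controls and 0.322 to 0.348 in vehicle mice 2 to 5. In siponimod mice it was 0.356 to 0.375, while vehicle mouse 1 stood at 0.181, within the control range.

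Sox10, which activates Myrf and many myelin genes, had 34.8, 27.6, 25.8, 36.5 and 28.4 scaled TPM in control mice 1 to 5. Vehicle mice 1 to 5 had 21.4, 22.5, 24.9, 28.5 and 20.4. All vehicle mice but mouse 4 lay below every control. A log2 fold change of −0.37 (SE 0.13, limma adjusted p = 0.207) missed the threshold, as did −0.34 without vehicle mouse 1 (limma adjusted p = 0.202). In the authors' deposited table the adjusted p was 0.0167 at a log2 fold change of −0.35.

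Sox8, the relative of Sox10 that acts beside it in this lineage, lies on chromosome 17 from 25565892 to 25570686 on the minus strand. Control mice 1 to 5 had 29.6, 28.6, 30.0, 37.6 and 32.9 scaled TPM. Vehicle mice 1 to 5 had 23.7, 24.6, 23.9, 25.0 and 20.5, and every one lay below every control. The log2 fold change was −0.42 (SE 0.089, limma adjusted p = 0.0194), and it was −0.42 without vehicle mouse 1 as well (limma adjusted p = 0.0114). The call was lost when control mouse 4, control mouse 5 or vehicle mouse 5 was left out, with limma adjusted p up to 0.0602 over the 15 omissions of 1 mouse. It was also lost on TPM as deposited (limma adjusted p = 0.164), with Bc1 taken out (0.0552) and with the vehicle and control groups fitted alone (0.0587). Sox8 overlaps 2810468N07Rik on the opposite strand.

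Nkx6-2, a homeodomain factor of mature oligodendrocytes needed for the ordering of the sheath beside the node, lies on chromosome 7 from 139579376 to 139582797. Control mice 1 to 5 had 16.9, 10.1, 8.69, 12.4 and 10.4 scaled TPM. Vehicle mouse 1 had 13.2, while vehicle mice 2 to 5 had 5.90, 6.001, 7.75 and 5.37, all below the lowest control. In the fit without vehicle mouse 1 the log2 fold change was −0.83 (SE 0.17, limma adjusted p = 0.0114), the most negative of the 9 factors in that fit. With it the change was −0.62 (SE 0.22, limma adjusted p = 0.244). Nkx6-2 overlaps Inpp5a on the opposite strand.

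Myrf, a membrane-bound factor that cuts itself free and switches on the myelin genes, lies on chromosome 19 from 10208272 to 10240748. Control mice 1 to 5 had 20.5, 17.9, 13.9, 22.6 and 17.6 scaled TPM. Vehicle mice 1 to 5 had 7.10, 13.7, 15.03, 20.6 and 10.1, and the ranges overlapped. The log2 fold change was −0.53 (SE 0.23, limma adjusted p = 0.392), and −0.33 without vehicle mouse 1 (SE 0.18, limma adjusted p = 0.432). The authors' deposited table also leaves Myrf above its threshold, with an adjusted p of 0.420.

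St18, a zinc finger protein of the Myt family, had 2.23, 2.37, 2.26, 2.93 and 2.90 scaled TPM in control mice 1 to 5. Vehicle mice 1 to 5 had 0.762, 1.78, 1.47, 2.06 and 1.18, all below every control. The log2 fold change was −0.67 (SE 0.17, limma adjusted p = 0.0573), and −0.53 without vehicle mouse 1 (limma adjusted p = 0.0592). St18 and Sox8 were the 2 of 9 factors whose vehicle and control ranges did not overlap with all mice, against 4.56% of all genes in either direction. There were 5 such factors without vehicle mouse 1, with Olig1, Nkx6-2 and Olig2 added, against 7.48% of all genes.

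Nkx2-2, a homeodomain factor that helps progenitors begin to differentiate, ranged from 3.74 to 5.53 scaled TPM in controls and from 3.71 to 5.04 in vehicle mice. Its log2 fold change was −0.15 (95% interval −0.41 to 0.11, limma adjusted p = 0.675), and −0.21 (95% interval −0.46 to 0.04, limma adjusted p = 0.437) without vehicle mouse 1. Nkx2-2 overlaps 6430503K07Rik and Nkx2-2os on the opposite strand. Zfp488, a zinc finger partner of Olig2, ranged from 0.984 to 1.34 in controls and from 0.409 to 1.16 in vehicle mice. Its log2 fold change was −0.28 (95% interval −0.62 to 0.05, limma adjusted p = 0.571). Leaving out vehicle mouse 1, which held the lowest Zfp488 value, it was −0.13 (95% interval −0.39 to 0.13, limma adjusted p = 0.700). Neither gene passed in the authors' deposited table.

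**Figure D2:**
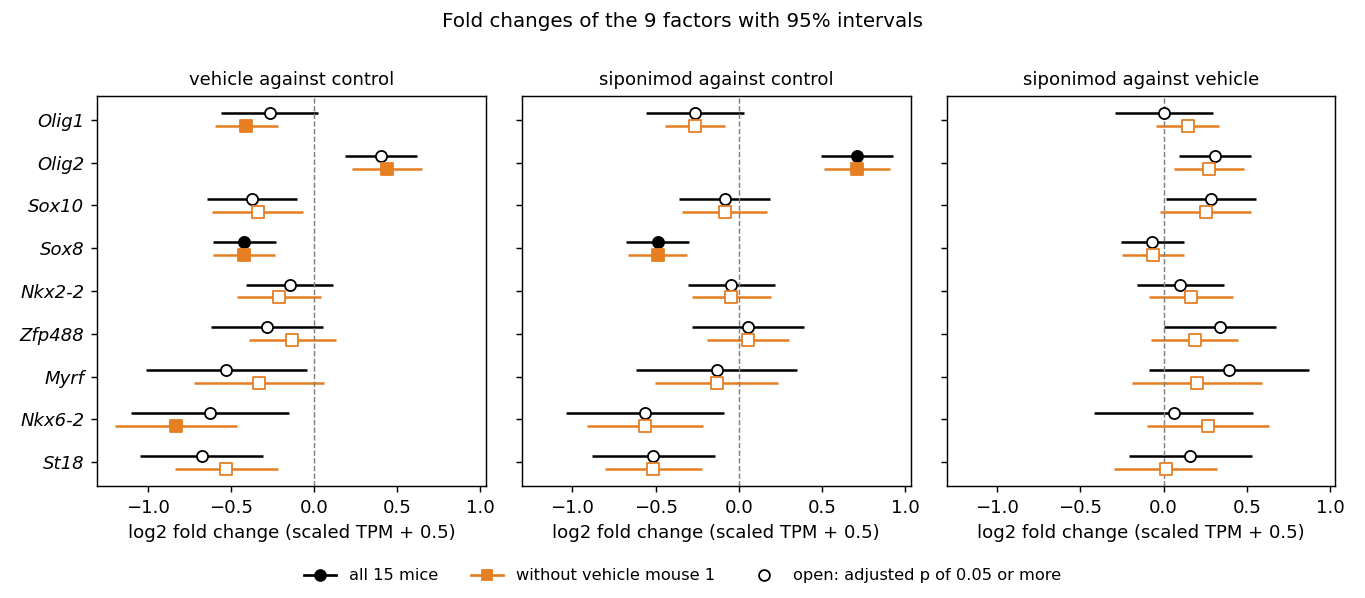
Log2 fold change of each factor (x axis, on scaled TPM + 0.5) in the 3 comparisons, with 95% limma intervals that are not adjusted for the number of genes. Circles use all 15 mice, squares leave out vehicle mouse 1, and filled symbols passed an adjusted p of 0.05. Olig2 lies to the right and Sox8 to the left of 0 in both comparisons with controls, at 0.40 and −0.42 for vehicle and 0.71 and −0.49 for siponimod.

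The second comparison sets mice given cuprizone with siponimod against the same 5 controls. Here 2 of 9 factors passed, Olig2 higher and Sox8 lower, against 1.18% of all tested genes (0.429% higher and 0.751% lower). In the fit without vehicle mouse 1, which enters through the shared estimate of spread, the same 2 factors passed, against 2.99%. In the authors' deposited table, 3 of 9 passed against 5.14% of its genes, these being Olig2, which was higher, and Sox8 and Olig1, which were lower.

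Olig2 in siponimod mice 1 to 5 stood at 26.2, 26.8, 24.8, 28.5 and 30.5 scaled TPM, and all 5 lay above the highest control at 20.3. Its log2 fold change was 0.71 (SE 0.10, limma adjusted p = 0.00123), or 1.63-fold higher. Sox8 in siponimod mice 1 to 5 stood at 20.3, 21.8, 22.8, 26.2 and 21.4, all below the lowest control at 28.6. Its log2 fold change was −0.49 (SE 0.089, limma adjusted p = 0.00866). On TPM as deposited neither passed (limma adjusted p = 0.328 for Olig2 and 0.752 for Sox8), and with Bc1 taken out Sox8 missed (limma adjusted p = 0.159). These 2 factors and St18, which lay lower at 1.26, 1.43, 1.68, 2.14 and 1.67, were the 3 of 9 whose ranges did not overlap with controls, against 4.93% of all genes. For St18 the log2 fold change was −0.51 (SE 0.17, limma adjusted p = 0.306, and 0.06001 without vehicle mouse 1).

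Nkx6-2 had 6.06, 6.45, 7.76, 8.15 and 9.97 scaled TPM in siponimod mice 1 to 5. Only mouse 5 lay above the lowest control at 8.69. Its log2 fold change of −0.56 (SE 0.22) had a limma adjusted p of 0.487, and of 0.0887 without vehicle mouse 1. Olig1 had 70.2, 72.1, 67.3, 80.0 and 81.4, with a log2 fold change of −0.26 (SE 0.14, limma adjusted p = 0.794, and 0.130 without vehicle mouse 1). Sox10 ranged from 23.4 to 33.5 and Myrf from 12.9 to 20.9, both overlapping the controls widely. Their log2 fold changes were −0.09 (95% interval −0.36 to 0.18) for Sox10 and −0.13 (95% interval −0.62 to 0.35) for Myrf. Nkx2-2 and Zfp488 stood at −0.05 (95% interval −0.31 to 0.22) and 0.06 (95% interval −0.28 to 0.39).

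The third comparison, siponimod against vehicle, asks whether the drug changed these factors in mice on the same diet. No factor passed in limma, and neither did any of the 17714 genes, so the share of all genes called was 0%. At an unadjusted p under 0.05, 801 genes (4.52%) and 3 of the 9 factors were counted, namely Olig2, Sox10 and Zfp488, all higher with siponimod. When vehicle mouse 1 was left out, Olig2 kept an unadjusted limma p under 0.05, and Sox10 and Zfp488 did not. The share of all genes under that threshold was not counted for that fit. Olig2 had a log2 difference of 0.31 (95% interval 0.09 to 0.52, limma adjusted p = 0.778) and 0.27 without vehicle mouse 1 (limma adjusted p = 0.730). The lowest siponimod mouse at 24.8 scaled TPM lay below vehicle mouse 4 at 25.5, so the groups overlapped. The authors' deposited table calls Olig2 alone of the 9 in this comparison, with a log2 fold change of 0.28 and an adjusted p of 0.0220, against 2.05% of its genes. Sox10 had a log2 difference of 0.28 (95% interval 0.01 to 0.55), and 0.25 (−0.02 to 0.52) without vehicle mouse 1. Zfp488 had 0.34 (95% interval 0.00 to 0.67), and 0.19 (−0.07 to 0.45) without that mouse. Sox8 differed by −0.07 (95% interval −0.26 to 0.12), and by −0.07 (−0.25 to 0.12) without it, so the interval leaves room for a small difference in either direction. Myrf differed by 0.39 (95% interval −0.09 to 0.88), and by 0.20 (−0.19 to 0.59) without vehicle mouse 1. Nkx6-2 differed by 0.06 (95% interval −0.42 to 0.54), and by 0.27 (−0.10 to 0.63) without it. The other 3 factors moved with that mouse too. Olig1 differed by 0.003 with it and 0.14 without it, Nkx2-2 by 0.10 and 0.17, and St18 by 0.16 and 0.01.

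The mature-cell factors Myrf and Nkx6-2 were then set against the whole-lineage factors Olig1, Olig2 and Sox10 within each mouse, as 6 log2 ratios in 3 comparisons. The 18 exact two-sided permutation tests over mice were adjusted together, and the smallest p that 5 against 5 mice allow is 0.00794. Ratios that share a factor are not independent. Myrf relative to Olig2 was lower in all 10 cuprizone-fed mice than in any control. Its log2 ratio in control mice 1 to 5 was 0.01, 0.04, 0.07, 0.44 and 0.16. In vehicle mice 1 to 5 it was −1.42, −0.62, −0.50, −0.30 and −1.09, a difference of −0.93 in means (exact permutation p = 0.00794, adjusted p = 0.0357). Over vehicle mice 2 to 5 the difference was −0.77 (exact permutation p = 0.0159, adjusted p = 0.0408). Siponimod mice 1 to 5 had −0.99, −0.89, −0.42, −0.43 and −0.77, a difference of −0.84 from controls (exact permutation p = 0.00794, adjusted p = 0.0357).

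Nkx6-2 relative to Olig2 had the largest difference in means of the 6 ratios in both comparisons with controls. Its log2 ratio was −0.26, −0.75, −0.58, −0.41 and −0.57 in control mice 1 to 5. Vehicle mouse 1 had −0.57, within the control range, and vehicle mice 2 to 5 had −1.77, −1.76, −1.66 and −1.94. The vehicle difference was −1.03 over 5 mice (exact permutation p = 0.0238, adjusted p = 0.0714), and −1.27 over mice 2 to 5 (exact permutation p = 0.0159, adjusted p = 0.0408). Siponimod mice 1 to 5 had −2.02, −1.98, −1.62, −1.74 and −1.57, a difference of −1.27 (exact permutation p = 0.00794, adjusted p = 0.0357), or a ratio 2.42 times lower than in controls.

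The same factor relative to Sox10 was lower in siponimod mice by a difference of −0.48 (exact permutation p = 0.00794, adjusted p = 0.0357). In vehicle mice that difference was −0.25 (exact permutation p = 0.341, adjusted p = 0.698), and it was −0.49 when vehicle mouse 1 was left out (exact permutation p = 0.0159, adjusted p = 0.0408). Relative to Olig1 the vehicle difference was −0.36 (exact permutation p = 0.0238, adjusted p = 0.0714), and −0.42 without vehicle mouse 1 (exact permutation p = 0.0159, adjusted p = 0.0408). The siponimod difference of −0.30 relative to Olig1 had an adjusted exact permutation p of 0.102.

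Myrf relative to Sox10 stood at −0.72 ± 0.10 in controls, −0.87 ± 0.41 in vehicle and −0.76 ± 0.21 in siponimod mice (log2 mean ± SD, n = 5 each), and neither difference from controls passed (exact permutation p = 0.516 and 0.659). Myrf relative to Olig1 stood at −2.25 ± 0.17, −2.51 ± 0.82 and −2.12 ± 0.24 (exact permutation p = 0.635 for vehicle and 0.349 for siponimod). The lower vehicle means rested on vehicle mouse 1, since without it the vehicle differences from controls were 0.006 for Myrf relative to Sox10 (exact permutation p = 0.984) and 0.07 relative to Olig1 (exact permutation p = 0.746). In total 1 of 6 ratios passed in vehicle against control, 4 of 6 without vehicle mouse 1, and 3 of 6 in siponimod against control. None of 6 passed between siponimod and vehicle, where the smallest unadjusted exact permutation p was 0.405 with all mice and 0.349 without vehicle mouse 1. With 4 mice in a group the smallest p is 0.0159, and leaving out any 1 mouse other than vehicle mouse 1 left no ratio called in vehicle against control. Leaving out any 1 control or siponimod mouse likewise left none in siponimod against control. Every ratio that passed was lower with cuprizone, and Olig2 or Nkx6-2 was a term of each.

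**Figure D3:**
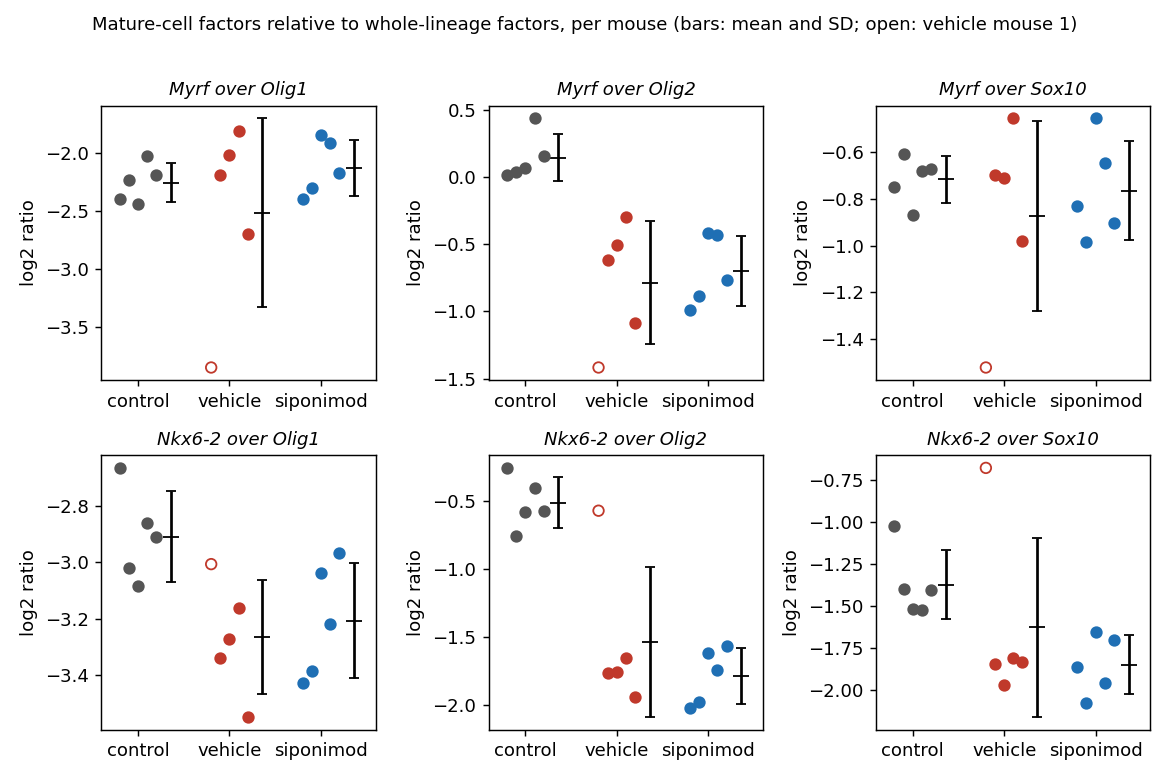
Log2 ratio of a mature-cell factor (Myrf in the top row, Nkx6-2 in the bottom row) to a whole-lineage factor in every mouse; y axes do not start at 0 and differ between panels. Points are mice, the open point is vehicle mouse 1, and bars give mean and SD (n = 5). Nkx6-2 over Olig2 separates controls, at −0.75 to −0.26, from vehicle mice 2 to 5, at −1.94 to −1.66 (vehicle mouse 1 lies at −0.57), and from siponimod mice, at −2.02 to −1.57.

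The median of the 9 factors lay closer to 0 than that of the myelin genes, which Myrf and Sox10 are known to activate, and the difference between the medians was not tested. Of 20 myelin and mature oligodendrocyte genes, 18 fell and none rose in vehicle against control, with a median log2 fold change of −1.97, and the same count of 18 was reached without vehicle mouse 1. Mal, a lipid-raft protein of myelin, fell from 124.8 ± 19.4 to 16.6 ± 4.72 scaled TPM (SD, n = 5), or 7.49-fold (limma adjusted p = 6.88e-07). Ugt8a, which makes the galactolipids of myelin, fell 4.32-fold (limma adjusted p = 4.54e-06). Over the list the summed level was 3837 to 5789 scaled TPM in controls, 801 to 2089 in vehicle (801 to 1834 without mouse 1) and 1006 to 1977 in siponimod mice. In siponimod against control 15 of 20 fell, 17 without vehicle mouse 1, and Mal and Ugt8a fell 7.11-fold and 3.86-fold.

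Factors outside the 9 with a known part in differentiation were read next. Of 18 other factors that promote it, 17 were tested, and none passed in any comparison, with a median log2 fold change of 0.02 in vehicle against control. Of 13 that restrain it, 1 fell and none rose. That 1 was Tmem98, a membrane protein that binds Myrf and blocks its cleavage, which went from 12.2 ± 2.63 in controls to 5.26 ± 1.34 in vehicle mice (log2 fold change −1.14, SE 0.17, limma adjusted p = 0.00157). In siponimod mice it stood at 4.84 ± 1.02 (log2 fold change −1.24, SE 0.17, limma adjusted p = 0.000999). Without vehicle mouse 1, Sox2 and Sox6, factors of the progenitor state, also passed as higher in vehicle mice (limma adjusted p = 0.0441 and 0.0171), and they missed with all mice (0.149 and 0.625). In siponimod against control, Sox2 alone of the 13 passed as higher in the fit without vehicle mouse 1, and none did with all mice.

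None of 10 progenitor markers passed in vehicle against control, and their median log2 fold change was 0.01. Pdgfra, the growth factor receptor of progenitors, stood at 14.5 ± 1.43 in controls, 13.9 ± 2.62 in vehicle and 15.1 ± 0.518 in siponimod mice (limma adjusted p = 0.801 for vehicle and 1 for siponimod). Without vehicle mouse 1, Xylt1 passed as higher in siponimod against control (log2 fold change 0.23, limma adjusted p = 0.0474). Among 12 markers of newly formed oligodendrocytes, 1 fell. This was Enpp6, a choline phosphodiesterase, which went from 4.11 ± 0.577 to 1.84 ± 0.217 (limma adjusted p = 0.00119), and to 2.25 ± 0.545 with siponimod (limma adjusted p = 0.0116). Tmem163 joined it in siponimod mice without vehicle mouse 1 (limma adjusted p = 0.00959).

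**Figure D4:**
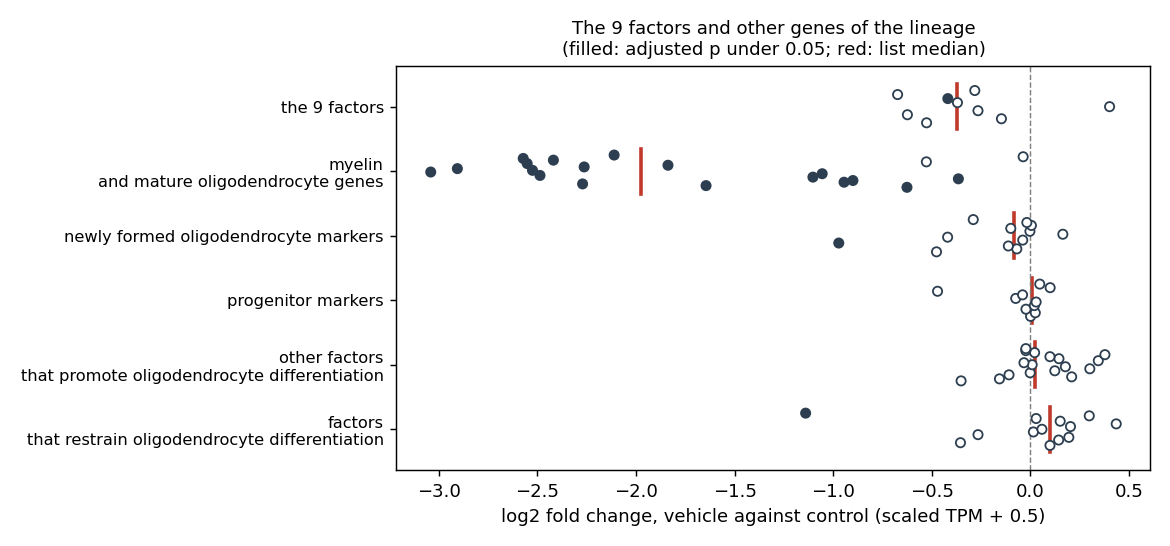
Log2 fold change in vehicle against control (x axis, on scaled TPM + 0.5, all mice) of the 9 factors and of 5 lists of other lineage genes. Each point is a gene, filled where it passed an adjusted p of 0.05, and red bars are list medians. The 9 factors have a median of −0.37, the myelin genes −1.97 and the progenitor markers 0.01.

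Olig2 is also found in some astrocytes, and Sox8 in astrocytes too, so markers of other cells are given beside them. All 8 astrocyte markers were detected in every mouse, and their summed level was 872 to 956 scaled TPM in controls, 1138 to 1531 in vehicle and 1006 to 1456 in siponimod mice. Of the 8, 3 rose in vehicle mice, namely Gfap (4.32-fold, limma adjusted p = 0.000314), Aldh1l1 (1.36-fold, limma adjusted p = 0.000456) and Gjb6 (1.41-fold, limma adjusted p = 0.0154). In siponimod mice 2 of 8 rose, Gfap and Aldh1l1. Without vehicle mouse 1, 4 of 8 rose in each group, with Gjb6 and Slc1a3 in both. Microglial markers summed to 263 to 294 in controls, 325 to 534 in vehicle mice 2 to 5 and 294 to 455 in siponimod mice, while vehicle mouse 1 had 908. Of these markers, none of 8 passed with all mice, while 4 passed as higher in vehicle mice without vehicle mouse 1. None of 8 neuronal, 5 endothelial or 3 tested Schwann cell markers passed with all mice, and Cldn5 passed as lower in vehicle mice without vehicle mouse 1. The part of astrocytes or microglia in the levels of Olig2 and Sox8 was not tested.

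The genes whose pattern over 14 mice, without vehicle mouse 1, was most like that of Olig2 were Aen (Pearson r = 0.950), Cst3 (r = 0.905) and Kctd15 (r = 0.904). Cst3 encodes a secreted inhibitor of cysteine proteases. Those most like Myrf were Gjc3 (r = 0.931), Jup (r = 0.908) and Gatm (r = 0.901). Gjc3 encodes a connexin of oligodendrocytes, and Gatm the first enzyme of creatine synthesis. These r are over mice of all 3 groups, so differences between groups enter them, and they describe likeness only.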

How the data were processed

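RNA was isolated from corpus callosum and neocortex and made into ribosomal RNA-depleted, stranded total RNA libraries, per the labels' protocols, while the first line of each deposited file names a 3 prime mRNA analysis, and this conflict was not settled. The submitters' processing notes name Salmon 1.4.0, STAR 2.6.1d, Trim Galore 0.6.6, bcl2fastq and the mm10 build. The authors deposited TPM for each mouse, and for each pair of groups their own log2 fold changes, standard errors, p-values and adjusted p-values, per the file headers. The test behind these p-values is not given in the sources used here. TPM keep no depth, so precision rests on the spread between mice.

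Groups come from the labels, and the 5 mice of a group were taken as separate animals. TPM were multiplied by 1 factor per library to a common median. This corrects for the share taken by Bc1 and for any other shift of the median, but not for the length trend of vehicle mouse 1. With only Bc1 taken out, the median log2 fold change of all genes in vehicle against control was still −0.095. Genes above 0.5 deposited TPM in at least 5 mice were tested (17714 of 19261). On log2(scaled TPM + 0.5), 1 model of all 3 groups (12 residual degrees of freedom) was fitted by limma 3.58.1 (R 4.3.3) with a mean-variance trend. Calls used Benjamini-Hochberg adjusted p under 0.05, and the fit was tested on simulated data. The pseudocount understates changes of low genes such as Zfp488. Ratios were tested by exact permutation in Python 3.11.15 with SciPy 1.17.1. Alternatives were other scalings, pseudocounts, filters and weights, separate fits, a replicate block and each mouse left out.

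The 9 factors, the 10 lists (107 entries) and the motifs were chosen with earlier results of these data known. Named list genes are up to 3 with the smallest p among those called in vehicle against control, and up to 2 called only elsewhere. A gene that this rule takes is not reported here. Pdgfra, Sox2, Sox6, Cldn5, Xylt1, Tmem163 and the ratio of Olig2 to Olig1 were picked after their values were seen. Coordinates are from GENCODE M21 on GRCm38, and promoters from RefSeq on GRCm38.p6.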

Additional observations from a re-analysis of the deposited data

Results flagged for a closer look

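Of 27 groups of 5 mice (9 factors in 3 groups), 2 held a mouse far from the other 4, where chance gives about 1 in 20. Sox8 in vehicle mouse 5 was the lowest of its group at 20.54 scaled TPM, and the nearest other mouse had 23.75. Zfp488 in vehicle mouse 1 was the lowest of its group at 0.4087 scaled TPM, and the nearest other mouse had 0.9539.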

How the results depend on the processing

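The number of factors called in vehicle against control (1 of 9) was 2 on TPM as deposited and with Bc1 taken out (Nkx6-2 and Olig1), 0 with the groups fitted alone, and 5 with sample quality weights or without both cuprizone mice numbered 1. It was 0 to 4 with 1 mouse left out, 0 without control mouse 4, control mouse 5 or vehicle mouse 5, and 4 without vehicle mouse 1. In siponimod against control (2 of 9) it was 0 on TPM as deposited, 1 with Bc1 taken out and 2 with any 1 mouse left out. It was 3 with sample quality weights, where St18 was also called as lower. On TPM as deposited the median log2 fold change of all genes in vehicle against control was −0.21.

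Over all genes, the 427 calls of vehicle against control became 220 on TPM as deposited, 142 among genes at or above the median TPM (which hold 5 of the 9 factors), 247 with groups fitted alone, 697 with quality weights, 773 without both mice numbered 1, and 267 to 672 with 1 mouse left out. The 209 calls of siponimod against control became 132, 70, 505, 552 and 390, and 151 to 529. With Bc1 taken out, vehicle against control had 319 calls over all genes.

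Ratios called in vehicle against control (1 of 6) were 4 without both mice numbered 1 and 0 to 4 with 1 mouse left out, and in siponimod against control (3 of 6) 0 to 3. With 4 mice in a group the smallest p is 0.0159, so few ratios alone cannot pass the adjustment.

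Deviations of same-numbered mice from their group means had correlations of −0.07 to 0.21, with 3 of 15 over 0.1. Mice of different numbers were not set beside them, so whether same-numbered mice deviated together was not settled. With the replicate block, 2 factors passed in vehicle against control (Sox8 and St18), against 369 calls over all 17714 tested genes. In that setting 0 ratios passed in either comparison with controls, since 5 pairs cannot reach the threshold.

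Of 221 recomputed fold changes of the factors in vehicle against control none changed sign, 18 gained and 6 lost the call. In siponimod against control 3 of 221 changed sign, all of Nkx2-2 (−0.113 to 0.0136 with 1 mouse left out). Between siponimod and vehicle 12 of 221 did, none of them called. Sox8 became 0.178 on TPM as deposited and 0.0574 with Bc1 taken out, and St18 −0.0265 with quality weights. With 1 mouse left out Olig1 ran from −0.0582 to 0.144 and Nkx6-2 from −0.0382 to 0.267. The cause of these shifts was not tested.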
